A study of Zea mays with 6 samples.

Results

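The genes described here had no RNA sequencing read at the base of the maize leaf and were transcribed in its mature blade. They were chosen from a table of transcripts as the protein coding genes with 0 exon reads in both base libraries, ranked by the smaller of their RPKM values (reads scaled to exon length and library size) in the maturing zone libraries A and B. The first 200 of this ranking are members, out of 9202 protein coding genes with 0 base reads and 39313 protein coding genes in all. Of the 9202, only 512 had an RPKM above 0 in both maturing zone libraries, and 7403 had no read in any of the 4 libraries. The transcript contrast between the zones chose these genes, so their transcript values are given as a description without a test. The histone marks were read on separate chromatin pools and did not enter the choice.

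The samples were the maturing zone and the base of the third leaf of maize, inbred line B73. Each leaf gave a 4 cm maturing zone piece from the middle of its lit blade and a base piece of 1 to 2 cm from its lowest end, which was not reached by light. All plants were untreated B73 seedlings 13 to 14 days after sowing. They grew at 130 µmol photons per square metre and second, in days of 16 h at 25 °C and nights of 8 h at 20 °C. Transcripts, acetylation of histone H3 at lysine 9 (H3K9ac) and trimethylation of histone H3 at lysine 4 (H3K4me3) were each read in both zones, which gives 6 samples. Each replicate was a pool of 6 plants for RNA and of 10 plants for chromatin. These are whole pieces of leaf, so fewer cells of a type and less RNA or mark per cell cannot be told apart.

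H3K9ac and H3K4me3 lie around the start of transcribed genes in plants and are widely used as marks of active promoters. H3K9ac is set by histone acetyltransferases and removed by deacetylases, and H3K4me3 is set by SET domain methyltransferases. A maize leaf matures from its base to its tip, so the base holds young cells that still divide and expand, and the lit blade holds differentiated mesophyll and bundle sheath cells that carry out C4 photosynthesis.

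The libraries held 50657759 and 18325106 exon reads in maturing zone A and B, and 44243772 and 24205348 in base A and B. The zones carried their own markers. Of 6 genes of C4 photosynthesis and Rubisco activation, all stood at 192 to 10498 RPKM in the maturing zone and at 0.45 to 29.6 RPKM in the base. The 4 genes of dividing or growing tissue stood at 0.01 to 0.42 RPKM in the maturing zone and at 11.1 to 37.6 RPKM in the base. The base libraries were not alike. All 6 blade markers were higher in base A, from PEPC with 4.04 RPKM in A and 3.72 in B to PEPCK with 4.39 and 0.45. Genes of growing tissue went both ways, with MCM6 at 34.1 in A and 11.1 in B and RS2 at 12.5 and 37.6. None of these markers was silent in the base, so no gene of these checks is among the described ones. Scaled by read totals, the median log2 difference of maturing zone minus base was -1.07 over the 17466 protein coding genes with at least 10 reads in every library, and the bounds on fold changes given here do not remove that shift.

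Transcript levels of the described genes in the blade were mostly low. The smaller RPKM of a gene spanned 0.09 to 16.5, with a median of 0.28, and 40 of the 200 genes reached at least 1 RPKM in both maturing zone libraries. In maturing zone A the genes had from 1 to 598 reads with a median of 19, and in maturing zone B from 1 to 584 reads with a median of 8. Only 85 of the 200 had at least 10 reads in each maturing zone library, and 38 had under 10 reads in both together, so the lower ranks rest on a handful of reads. A base count of 0 over both libraries allows up to 3 reads, or 0.0438 CPM of exon reads, which covers counting error only. Against that floor over the zone, 181 genes were at least 2-fold and 100 at least 10-fold higher in the maturing zone, with a median bound of 10.4-fold over the 198 genes above the floor. The authors' deposited table called 141 of the 200 higher and 0 lower in the maturing zone, against 8.35% of all protein coding genes called higher, a count that the choice of genes already fixes. At the edge of the ranking GRMZM2G367326, the last gene taken, had 2 reads in each maturing zone library, while GRMZM2G384884, the first one left out, had 50 and 4 reads and the same smaller RPKM of 0.09.

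**Figure D1:**
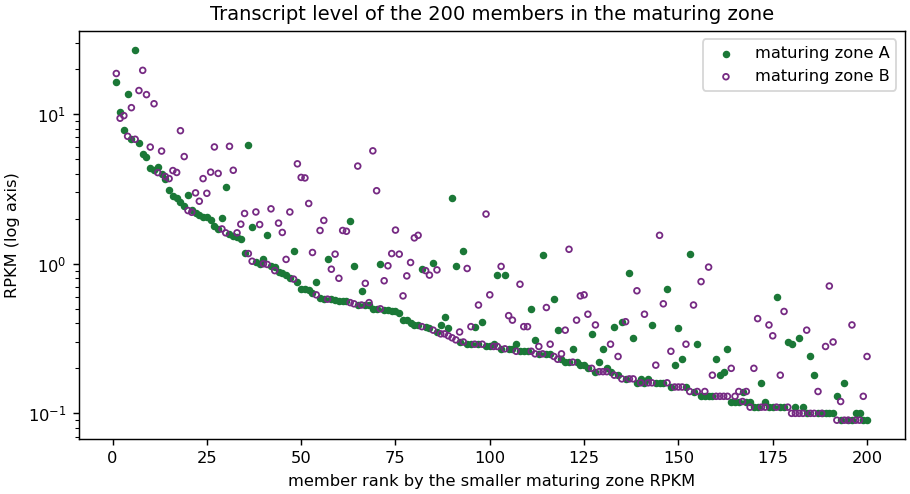
RPKM on a log axis in maturing zone libraries A (filled) and B (open) of the 200 genes by rank, all of which had 0 reads in the base. The smaller value falls from 16.5 at rank 1 to 0.09 at rank 200, and the larger value is more than 2 times the smaller at 65 genes with B above A and at 27 with A above B.

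The highest ranked gene was GRMZM2G552418, with 16.5 and 18.7 RPKM in maturing zone A and B (343 and 137 reads) against 0 reads in base A and B. RefSeq's current maize annotation lists this locus as a long noncoding RNA rather than as a protein coding gene. GRMZM2G167689 followed with 10.3 and 9.4 RPKM in maturing zone A and B and 0 reads in both base libraries. The replicate libraries of the blade did not always match. GRMZM2G055467 had 5.41 RPKM in maturing zone A and 19.7 in B (457 and 584 reads), against 0 reads in each base library, which puts it at least 344-fold higher in the maturing zone by read totals. GRMZM2G164225 went the other way, with 27.0 RPKM in A and 6.8 in B (451 and 40 reads) and 0 reads in the base. Of the 200 genes, 65 had more than 2 times the RPKM in B that they had in A, and 27 had more than 2 times the RPKM in A.

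RefSeq carried a matching entry for 57 of the 200 identifiers, and a further name for 16 of these, among which are marker or clone identifiers. Of the 57, 2 are not listed as protein coding: GRMZM2G552418, and GRMZM2G433446 at rank 93, a transcribed pseudogene. The current class of identifiers without an entry was not checked. The named genes include transcription factors of several families. PIF4 (GRMZM5G865967), of a family of transcription factors that bind phytochrome in Arabidopsis, had 12 and 8 reads in maturing zone A and B and 0 in the base. The bZIP factor bZIP70 (GRMZM2G060290) had 90 and 26 reads in maturing zone A and B, MYB100 (GRMZM2G143046) had 12 and 10, and NAC76 (GRMZM2G316840) had 24 and 4, all with 0 in the base. wus2 (GRMZM2G028622), a homeobox gene of the WUSCHEL family that acts in stem cell niches, had 15 and 17 reads in the maturing zone and 0 in the base. Its place among the 200 genes rests on these 32 reads. TIFY9 (GRMZM2G145412), of the family that holds the repressors of jasmonate signalling, had 65 and 8 reads in maturing zone A and B.

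A further group of named genes codes for enzymes and small proteins. The glutathione S-transferases gst35 (GRMZM2G161891) and GST25 (GRMZM2G161905), enzymes that join glutathione to toxic compounds, had 39 and 38 reads and 8 and 27 reads in maturing zone A and B. The starts of their H3K9ac regions lie 9526 bp apart on chromosome 9, and reads may be shared between such copies. A chitinase (GRMZM2G145461) had 38 and 21 reads, tasselseed2 (ts2, GRMZM2G455809), a short-chain dehydrogenase known for stopping pistil growth in the tassel, had 48 and 93, and serine acetyltransferase1 (sat1, GRMZM2G069203), of cysteine synthesis, had 16 and 5 reads in maturing zone A and B. psk1 (GRMZM2G044194), named for the growth peptide phytosulfokine, had 12 and 11 reads and the late embryogenesis abundant gene Lea14A (GRMZM2G050607) had 5 and 2. Every gene of this paragraph had 0 reads in both base libraries. The gene listed as TPS3 (GRMZM2G064406) had 91 and 60 reads in the maturing zone, 0 in the base, and no listed region of either mark.

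The marks were read from the authors' lists of 43734 H3K9ac and 32908 H3K4me3 regions, each with an average normalized read signal per zone and the gene next to it. Whether the silent genes were marked was first asked by counting genes with a listed region. Of the 200 genes, 112 (56%, 95% Wilson interval 49.1 to 62.7%) had an H3K9ac region and 97 (48.5%, 41.7 to 55.4%) an H3K4me3 region. Regions of both marks were listed for 83 genes, of H3K9ac alone for 29, of H3K4me3 alone for 14, and of neither mark for 74, or 37%. Among genes with 0 reads in all 4 libraries 83.3% of 7403 had no region, and among the 1599 other genes with 0 base reads and some maturing zone reads 72.2% had none. Genes read in the base whose smaller maturing zone RPKM lay anywhere within the range of the described genes, with no matching of levels inside it, lacked a region in 13.1% of 18462 cases. The share of the described genes without a region was thus between these sets and close to the 36% of all protein coding genes. These are shares of genes in lists and were not tested.

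**Figure D2:**
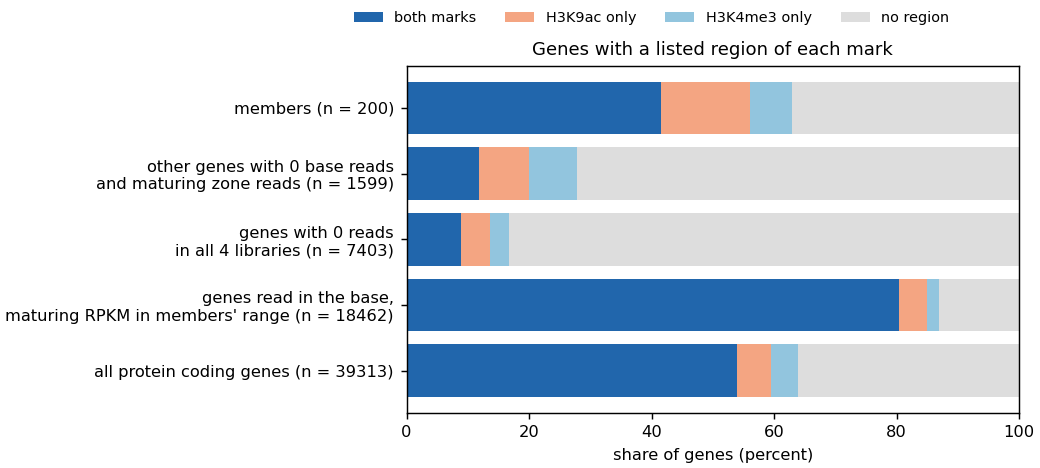
Share of genes in percent with a listed region of both marks, of H3K9ac alone, of H3K4me3 alone or of neither, with the number of genes in each set. Both marks are listed for 41.5% of the described genes, against 8.89% of genes without a read in any library and 80.4% of genes read in the base whose smaller maturing zone RPKM lies anywhere between the lowest and highest of the described genes.

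Genes without a region lay lower in the ranking. Of the first 50 genes 10 had no region, of ranks 51 to 100 14, and of ranks 101 to 150 and 151 to 200 25 each. The median smaller RPKM was 0.21 for the 74 genes without a region and 0.395 for the 126 with one. Some of the highest genes were among the unlisted ones all the same: GRMZM2G552418, GRMZM2G152079, GRMZM2G082608 and GRMZM2G179616, all within the first 20 ranks, had no region of either mark in either zone. GRMZM2G152079 had 7.88 and 9.78 RPKM in maturing zone A and B, and GRMZM2G082608 had 13.7 and 7.12. The authors give each region to its next gene, so a region at a shared promoter may stand under a neighbour. Gene coordinates of this genome build were not used here. Leaving out base library A, so that 0 reads were asked of base B alone, gave a list that shares 53 genes with the 200 and has 24.5% of genes without a region. Allowing up to 2 reads in each base library left 19% without a region, and among the 85 genes with at least 10 reads in each maturing zone library 22.4% had none, against 37% of the 200.

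The signal of the listed regions was then compared between the zones. For each gene the region with the highest mean of the zone averages was used, and low in the base means under the 10th percentile of the base averages of all regions of that mark, 39.5 normalized reads for H3K9ac and 36.9 for H3K4me3. A region with little signal in the base may be in the lists only through the other zone, but the zone in which a region was called is not given. The values of the listed regions are therefore a description of these genes and not a sample of all 200.

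At most genes with a listed H3K9ac region, the mark was higher in the blade than in the base. The median authors' average over the 112 genes was 177.5 normalized reads in the maturing zone (quartiles 120 and 295) and 35.0 in the base (22.7 and 63.4). The median log2 difference was 2.31 with quartiles of 1.46 and 2.85, against -0.05 over the 23369 protein coding genes with an H3K9ac region. The signal was higher in the maturing zone at 107 of the 112 genes, at least 4-fold at 68 of them, compared with 4.63% of all protein coding genes with a region. At a false discovery rate (FDR) under 0.05, 106 of the 112 genes had an H3K9ac region called higher in the maturing zone in the authors' deposited table, against 31.7% of protein coding genes with a region. That is 53% of the 200 genes, where 18.8% of all protein coding genes had such a region in the authors' deposited table. Lower H3K9ac was called at 6 of the 112 genes in that table, 2 of which also had a region called higher, against 38.5% of protein coding genes with a region. By region, that table called 125 of the 138 H3K9ac regions of these genes higher and 7 lower, against 33% and 33.8% of all regions. In the base 63 of the 112 main regions were low, against 4.02% over all protein coding genes with a region. Only 1 gene, AC205154.3_FG001, exceeded the median base average of all regions, 218. The 63 genes are 31.5% of the 200, against 2.39% of all protein coding genes. The 31.5% became 15.5% with the 5th percentile as the limit. Among the 85 genes with at least 10 reads in each maturing zone library, 49.4% were low. None of the 112 fell under 39.5 in the maturing zone, where 47 exceeded the median of all regions, 194.

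The largest H3K9ac difference belonged to GRMZM2G467695 at rank 27, on chromosome 1 from 31539857 to 31540368 of the B73 RefGen_v3 build. Its authors' average was 538 in the maturing zone and 15.2 in the base, a log2 difference of 5.15, with an FDR of 9.3e-107 in the authors' deposited table. This gene had 83 and 99 reads in maturing zone A and B and 0 in the base. GRMZM2G079768 (chromosome 4, 74723611 to 74724145) had 479 in the maturing zone and 17.4 in the base, and AC200099.4_FG003 (chromosome 8, 27669480 to 27670321) had 456 and 18.1. Both are among the first 20 genes by rank, with 206 and 108 reads and 23 and 12 reads in maturing zone A and B. GRMZM2G054125 (chromosome 4, 17877675 to 17878181) had the highest H3K9ac signal of the first 20, 745 in the maturing zone against 31.8 in the base. GRMZM2G061521 at rank 108 had the lowest base average, 3.31, against 76.7 in the maturing zone. All 16 of the first 20 genes that had an H3K9ac region were called higher in the authors' deposited table, and 13 of the 16 were low in the base.

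H3K4me3 showed the same direction with fewer calls. Over the 97 genes with a region the median authors' average was 121 in the maturing zone (quartiles 84.1 and 179) and 32.2 in the base (15.3 and 70.3), and the median log2 difference was 1.97 with quartiles of 0.96 and 2.87, against 0.01 over 23007 protein coding genes with a region. Signal was higher in the maturing zone at 93 of the 97 genes and at least 4-fold higher at 48, against 3.89% of all protein coding genes with a region. The authors' deposited table called 68 of the 97 higher and 0 lower, where 11.5% and 14.7% of protein coding genes with an H3K4me3 region were called. The 68 genes are 34% of the 200, against 6.72% of all protein coding genes. By region, 70 of 103 were called higher and 0 lower in that table, against 11.3% and 14.3% of all H3K4me3 regions. In the base 52 of the 97 main regions were low, against 6.47% over all protein coding genes with a region. The median base average of all regions, 192, was exceeded at 3 of the 97. Leaving out base library A from the choice of genes raised the share of the whole list called higher in H3K4me3 to 52.5%, against 34% of the 200 genes, the share low in the base to 39.5%, against 26%, and the median log2 difference to 2.72, against 1.97. Allowing up to 2 reads in each base library gave 58.5% called higher, and taking the first 400 genes gave a median log2 difference of 1.25.

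**Figure D3:**
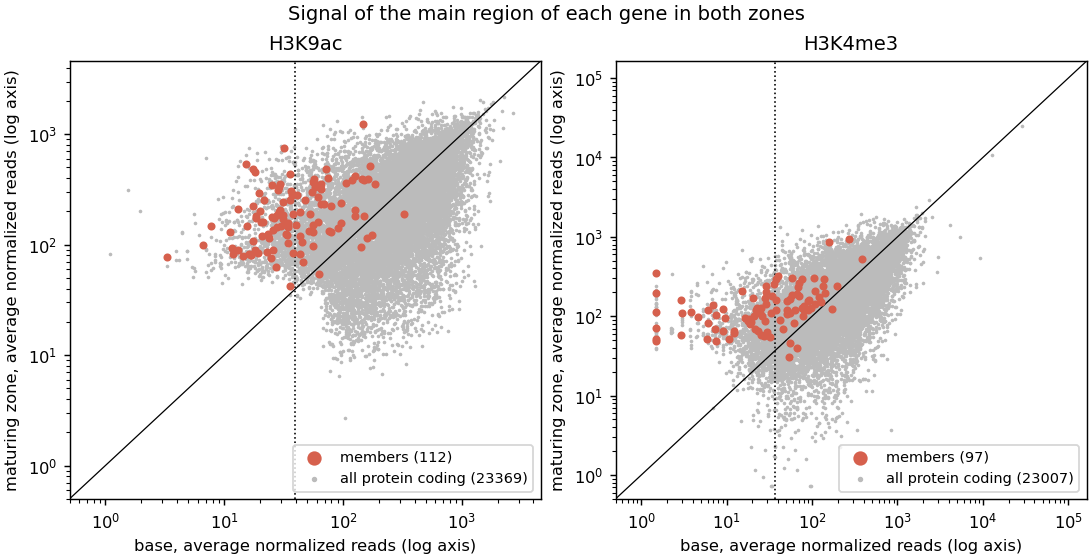
Authors' average normalized reads of the main region of a gene in the maturing zone against the base, on log axes, for the described genes and all protein coding genes with a region. The diagonal marks equal signal and the dotted line the 10th percentile of base averages; 107 of 112 described genes for H3K9ac and 93 of 97 for H3K4me3 lie above the diagonal.

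Several H3K4me3 regions stood in the base at the lowest value of the table, 1.5, which 78 regions share, so their folds rest on that value. Of the described genes, 6 had a main region there. GRMZM2G055467 (chromosome 4, 187450204 to 187451247) had an authors' average of 350 in the maturing zone and 1.5 in the base. GRMZM2G455869 (chromosome 5, 10182971 to 10184453) had 198 in the maturing zone against 1.5 in the base, and GRMZM2G404682 (chromosome 2, 40467917 to 40468765) had 114 against 1.5. These genes were transcribed at 5.41, 4.35 and 2.45 RPKM in maturing zone A. Their H3K9ac stood at 301, 131 and 148 in the maturing zone, and at 54.4, 11.2 and 7.73 in the base. GRMZM2G127338 (chromosome 6, 7127263 to 7128216) had 162 in the maturing zone and 2.95 in the base for H3K4me3.

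Base signal was compared with that of other genes over every gene of a set, so that a gene without a listed region counts as one without a listed mark. For H3K9ac, 75.5% of the described genes had no region or a main region low in the base, against 88.1% of the 7403 genes with 0 reads in all 4 libraries and 17.2% of the 18462 genes read in the base whose smaller maturing zone RPKM lay in the same range. For H3K4me3 these shares were 77.5%, against 89.8% and 21.2%. Over all 39313 protein coding genes they were 42.9% for H3K9ac and 45.3% for H3K4me3. In both marks the described genes stood at this limit between genes without any read and genes read in the base, nearer to the former. These shares were not tested. A region next to a gene without reads may belong to another gene, and its part in these values was not tested.

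**Figure D4:**
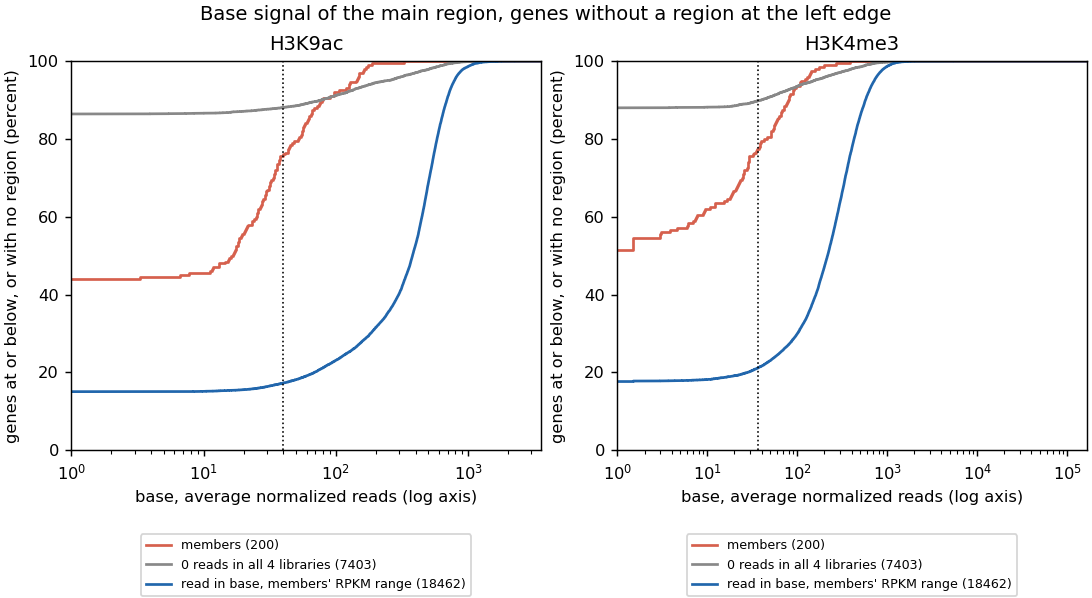
Cumulative share of all genes of a set in percent by the base average of their main region, on a log axis, with genes without a listed region counted from the left edge, for the described genes, genes with 0 reads in all 4 libraries and genes read in the base with a smaller maturing zone RPKM in the range of the described genes. At the dotted 10th percentile the described genes reach 75.5% for H3K9ac and 77.5% for H3K4me3, against 88.1% and 89.8% of genes without any read, and both pairs of curves cross to the right of that line.

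Counting genes without a region and genes whose main regions were all low, 130 of the 200 genes (65%) had no main region above the 10th percentile in the base. The same held for 85.7% of genes without a read in any library and for 39% of all protein coding genes. It held for 15.3% of genes read in the base with maturing zone RPKM in the same range. The other 70 genes had a main region of at least 1 mark above that level in the base although no read was found there. Of these 70, 60 had a region called higher in the maturing zone in the authors' deposited table, against 29.4% of the 23978 protein coding genes with such a main region. Further regions of a gene were not counted. For example, GRMZM2G146305, among the 130, had another H3K9ac region at 83.3 in the base, above that level. By successive ranks of 50 genes the share above that level was 30%, 40%, 34% and 36%, with no steady order. Over the genes with a region, a higher smaller RPKM went with a lower base signal (Spearman's rho -0.30 over 112 genes for H3K9ac and -0.33 over 97 genes for H3K4me3) and, weakly, with a higher maturing zone signal (0.20 and 0.13). These correlations are across genes of the same libraries, and genes are not independent replicates. They leave out genes without a listed region, and a region low in the base may be listed only through the blade. The smaller RPKM is also the value that ranked the genes. No relation over all 200 genes can therefore be read from them.

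The highest base H3K4me3 of the described genes was that of ts2, with an average of 528 in the maturing zone and 380 in the base (chromosome 1, 46683535 to 46684814) and no H3K9ac region. In the authors' deposited table that H3K4me3 region had an FDR of 0.786. The highest maturing zone H3K9ac of the described genes was that of sat1, with an average of 1238 in the maturing zone and 147 in the base. Its H3K4me3 average was 850 in the maturing zone and 156 in the base (chromosome 8, 155020639 to 155021563). Both base averages of sat1 were under the medians over all regions, 218 and 192. GRMZM2G449681 (chromosome 8, 109740669 to 109742198) had an H3K4me3 average of 941 in the maturing zone and 267 in the base, and its H3K9ac stood at 395 and 163. The marks of sat1 went with only 16 and 5 reads in maturing zone A and B.

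The other named genes with a region had lower maturing zone averages than these. MYB100 had an H3K9ac average of 347 in the maturing zone and 25.5 in the base, and an H3K4me3 average of 296 and 75.8. gst35 had an H3K9ac average of 306 in the maturing zone and 36.8 in the base, whereas its neighbour GST25 had 70.4 and 46.5. bZIP70 had 92.4 in the maturing zone and 11.7 in the base, and Lea14A 135 and 25.7. The chitinase gene had no H3K9ac region and an H3K4me3 average of 325 in the maturing zone and 39.7 in the base. For wus2 H3K9ac stood at 75.5 in the maturing zone and 24.9 in the base and H3K4me3 at 161 and 92.3, and for PIF4 H3K9ac stood at 121 and 43.8 and H3K4me3 at 126 and 83.5. The H3K9ac regions of both were called higher in the authors' deposited table, at FDR 3.98e-08 and 1.04e-09, and their H3K4me3 regions were not, at 0.156 and 0.293. TIFY9 had an H3K9ac average of 141 in the maturing zone and 90.6 in the base. Its H3K4me3 average was 206 in the maturing zone and 109 in the base, with an FDR of 0.113 in the authors' deposited table. No region was listed for NAC76 or psk1.

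Where both marks were listed, they mostly differed between the zones in the same direction. Of the 83 genes, 61 had regions of both marks called higher in the maturing zone in the authors' deposited table, 18 of H3K9ac alone, 0 of H3K4me3 alone and 4 of neither. Of the 21234 protein coding genes with both marks, 9.96% were called higher in both in that table, 20.1% in H3K9ac alone, 1.44% in H3K4me3 alone and 68.5% in neither. A mark without a call may still differ, and the marks were not called at like differences. Among the 18, H3K4me3 of GRMZM2G057116 averaged 87.4 in the maturing zone and 28.3 in the base without a call (FDR 0.0538). H3K9ac of TIFY9 was called at 141 and 90.6 (FDR 0.00275). The 61 genes had median H3K4me3 averages of 121 in the maturing zone and 22.1 in the base, and the 18 genes 125 and 82.3. The gap between the groups was wider in the base. The H3K4me3 calls that split the groups compare these same zones, so a gap in H3K4me3 is partly built in. Median H3K9ac was 206 in the maturing zone and 33.9 in the base for the 61 genes, and 142 and 60.9 for the 18. The log2 differences of the marks went together with Pearson's r of 0.58 and Spearman's rho of 0.60 across the 83 genes, which come from the same libraries and are not independent replicates. By their main regions, both marks were low in the base at 30 of the 83 genes, H3K9ac alone at 13, H3K4me3 alone at 16, and neither at 24. The same split was not made over all protein coding genes with both marks, so it cannot be read as particular to these genes. The main regions of the marks overlapped at 77 of the 83 genes (92.8%, against 96.2% of 21234 protein coding genes with both marks), with a median of 56.5 bp between their centres.

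**Figure D5:**
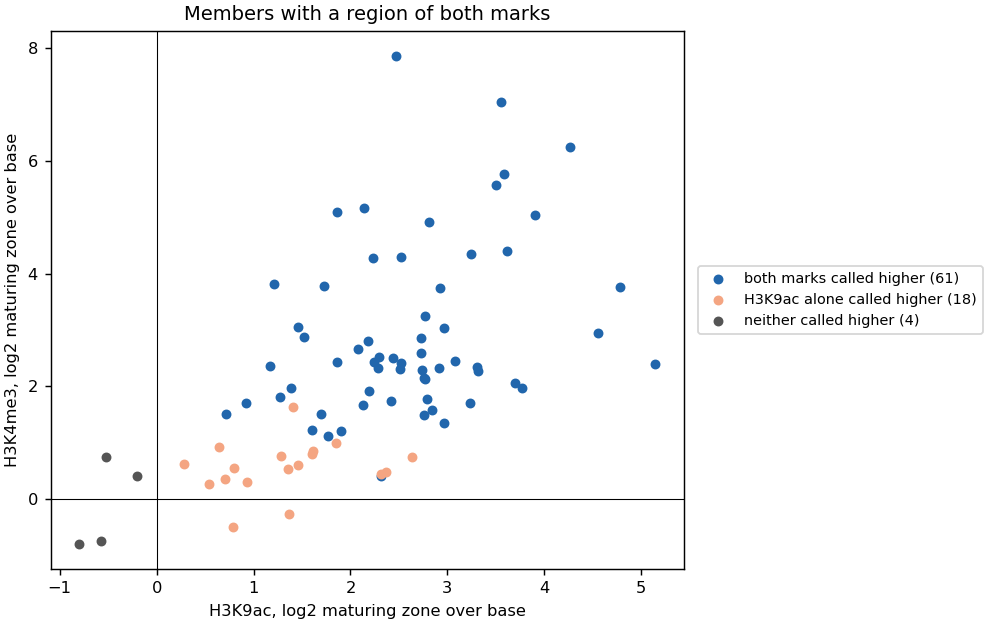
Log2 difference of the authors' averages, maturing zone over base, for H3K4me3 against H3K9ac at the 83 genes with regions of both marks, coloured by the calls of the authors' deposited table over all regions of a gene. Most genes lie above 0 on both axes, and 61 were called higher for both marks.

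Among genes with a region of a single mark, the counts were as follows. Of the 29 genes with H3K9ac alone 27 had a region called higher in the authors' deposited table and 20 were low in the base, against 47.6% and 21.0% of 2135 protein coding genes with H3K9ac alone. Of the 14 with H3K4me3 alone 7 were called higher in that table and 6 were low in the base, against 12.5% and 24.2% of 1773 protein coding genes with H3K4me3 alone. The difference between these groups was not tested.

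For 13 of the 126 genes with a region, no region was called higher in the authors' deposited table. Over all protein coding genes with both marks, 68.5% of 21234 had neither called higher. With a region of H3K9ac alone 47.6% of 2135 genes were called higher, and with H3K4me3 alone 12.5% of 1773. GRMZM2G318530 at rank 26, with 72 and 53 reads in maturing zone A and B and 0 in the base, had an H3K9ac average of 95.3 in the maturing zone and 141 in the base, and an H3K4me3 average of 39.9 and 66.6. Its H3K9ac region (chromosome 3, 224073188 to 224073809) was called lower in the authors' deposited table, with an FDR of 0.00431. A gene nearby, GRMZM2G318526, is also among the 200, with 27 and 23 reads in maturing zone A and B. Its H3K4me3 region starts 1180 bp from the start of that H3K9ac region and had an average of 56.3 in the maturing zone and 27.2 in the base. AC205154.3_FG001, with 3 reads in maturing zone A and 1 in B, had an H3K9ac average of 188 in the maturing zone and 326 in the base, and GRMZM2G018212, with 4 reads and 1 read, had 122 and 176. GRMZM2G514812, with 8 and 3 reads, had 115 and 160. Those 4 genes are the ones whose only H3K9ac calls were lower in the maturing zone.

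The genes with a region were spread over all 10 chromosomes, from 7 on chromosome 7 to 19 on chromosome 1. By the start of a region, 7 pairs of neighbours lay within 100000 bp of each other. The same count was not made over all genes with a region, so whether 7 is few or many cannot be told. Beside the glutathione S-transferases and the pair on chromosome 3, GRMZM2G127294 and GRMZM2G127338 lay 72284 bp apart on chromosome 6 and GRMZM2G404682 and GRMZM2G060712 lay 56435 bp apart on chromosome 2. GRMZM2G127294 had 2.06 and 3.71 RPKM in maturing zone A and B and GRMZM2G127338 had 2.59 and 7.76, with H3K9ac averages of 226 and 356 in the maturing zone and 17.4 and 29.7 in the base.

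The choice was also made in the opposite direction. The 200 protein coding genes with 0 reads in both maturing zone libraries and the highest smaller base RPKM had an H3K9ac region in 54.5% and an H3K4me3 region in 66% of cases. Their main regions had median H3K9ac averages of 43.6 in the maturing zone and 197 in the base, and median H3K4me3 averages of 40.6 and 125. By this choice 102 of the 200 had an H3K9ac region called lower in the maturing zone in the authors' deposited table and 83 an H3K4me3 region, where 22.9% and 8.58% of all protein coding genes had one. The genes silent in the base had 106 and 68 called higher, where 18.8% and 6.72% of all protein coding genes had one. The difference between these lists was not tested.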

How the data were processed

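RNA counts and RPKM values are those the authors deposited, for 2 libraries per zone, with whole-number exon read counts per gene feature and RPKM written to 2 decimals, per the file headers. The ChIP signal values are the authors' average normalized reads per region and zone; no source used here gives their scaling, the replicates behind them, the depth or the zone in which a region was called, and they carry no SD. The FDR-corrected p-values and the signed fold change, a score below 0 where the base is higher, are the authors' too; by the header it is base to maturing zone, but it is positive where the maturing zone average is higher. The genome build was B73 RefGen_v3, per the submitters' processing notes, which list edgeR, DiffBind 1.10.0, Trimmomatic 0.32 and CASAVA 1.8.2 with no role. Aligner, read counter and peak caller: not given in the sources used here. Coordinates are those of the files. Strandedness is not given either, so overlapping, antisense or near-identical genes may share reads.

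The 200 genes were taken by rule with ties broken by identifier, and their marks were summarised in Python 3.11.15 with pandas 2.3.3, numpy 2.4.6 and scipy 1.17.1; the functions were tested on simulated tables. Log2 differences are maturing zone minus base of the authors' averages. No test was refitted: the ChIP lists hold no replicates, and the transcript contrast chose the genes. The genes and comparison sets were chosen with earlier results of these data known. Genes named are the first ranks, the extremes of each mark's base average and difference, the edge of the ranking and those with a RefSeq name (NAM-5.0 assembly, names only); others were named after their values were seen. RefSeq gave no product descriptions here, so function classes by keyword were not used, and promoter sequences and motifs were not analysed here.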

Additional observations from a re-analysis of the deposited data

How the results depend on the processing

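The alternatives changed the choice of genes, the main region, the limit for a low base signal or the threshold on the deposited FDR, and all shares are percent of the genes chosen. No median log2 difference changed sign under any of them. Among the first 100 genes, 24% had no region of either mark, and the median log2 difference was 2.52 for H3K9ac and 2.33 for H3K4me3. Among the first 400 the medians were 1.83 and 1.25. Allowing up to 2 reads in each base library, which kept 38 of the 200 genes, left 19% without a region, 58.5% with H3K4me3 called higher, and medians of 2.75 and 2.35. Keeping only the 85 genes with at least 10 reads in each maturing zone library, a choice made after seeing the data, left 22.4% without a region and 49.4% with H3K9ac low in the base, and gave medians of 2.64 and 2.37. With the 5th percentile as the limit 15.5% were low in the base for H3K9ac. The causes were not tested, except that each choice of genes differs by construction.

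Leaving out each RNA library in turn gave 55 to 70% of genes with an H3K9ac region, 47 to 61% with an H3K4me3 region and 24.5 to 36.5% with neither. H3K9ac was called higher for 51 to 68% and H3K4me3 for 30.5 to 52.5%, and the medians ranged from 2.25 to 2.74 and from 1.82 to 2.72. Low base signal ranged from 30 to 39% for H3K9ac and from 25 to 39.5% for H3K4me3. The highest of these values came without base library A for every result but the share with neither mark, where it gave the lowest. No paired analysis was possible because the result comes from no test: the RNA libraries are named A and B in both zones, but no transcript test was fitted, and the ChIP values are zone averages. Assigning regions to genes by coordinates was not run, since gene coordinates of the same build were not used here. The depth of the ChIP libraries is unknown, and membership at the low ranks is limited by counts of 1 to 3 reads.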

Other observations

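Transcript level and mark level did not follow the same order among the genes with the strongest marks in the maturing zone. GRMZM2G449681 and sat1 stood at ranks 127 and 129 of 200 by RPKM and had the highest H3K4me3 averages of the described genes in the maturing zone, 941 and 850, and sat1 also the highest H3K9ac average, 1238. GRMZM2G167689 at rank 2, with 322 and 103 reads in maturing zone A and B, had an H3K4me3 average of 49.3 in the maturing zone and 1.5 in the base.

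Maturing zone library B had the higher RPKM for 121 of the 200 genes. Among all protein coding genes with a smaller maturing zone RPKM of at least 0.09 it had the higher RPKM in 35.9%. The same RPKM values ranked the described genes. Library B held 18325106 exon reads against 50657759 in A, so each read adds more RPKM in B. Median reads of the described genes were 19 in A and 8 in B, and the comparison was not matched for reads. The contrast therefore cannot be read as a property of these genes, and its cause was not tested.

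The list changed with the base libraries in which 0 reads were asked. Asking for 0 reads in base B alone shared 53 of 200 genes with the list used here, or 26.5%, and asking it of base A alone shared 107, or 53.5%.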
